A study of Homo sapiens with 6 samples.

Results

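The kallikrein-related peptidases KLK5, KLK6, KLK7, KLK8, KLK10 and KLK11 were followed in OVCA432, an established cell line from human high grade serous ovarian cancer. The 6 genes were taken by symbol, out of 19775 genes with at least 1 probe set carrying their symbol alone. They were represented by 9 probe sets, 2 each for KLK7, KLK8 and KLK10 and 1 each for the other 3 genes. The study asked what the cancer cells express after contact with MFAP5, a glycoprotein of the extracellular microfibrils that is secreted by stromal cells. Cells without serum for 24 h received 200 ng/mL of recombinant human MFAP5 in serum-free RPMI (the MFAP5 group, 3 samples) or a matching amount of solvent (the control group, 3 samples), and total RNA was taken 48 h later. Each sample was hybridised to its own Affymetrix Human Genome U133 Plus 2.0 array. All 6 samples therefore share 1 cell line and serum starvation, and the sources do not say whether the samples of a group came from separate passages, so the p-values measure the spread between these samples. Protein and protease activity were not analysed here.

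Kallikrein-related peptidases are secreted serine proteases encoded side by side in a cluster on chromosome 19. They are made as inactive zymogens and are switched on by removal of a short pro-peptide, often by another kallikrein. KLK5, KLK7 and KLK8 are best known from skin, where they cut the junctions between cornified cells so that these are shed, and SPINK-type and serpin inhibitors restrain them. Several kallikreins, KLK6, KLK10 and KLK11 among them, are made by ovarian carcinomas and have been studied as tumour markers.

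Along the GRCh38.p14 assembly, as annotated by RefSeq, the genes stand in the order KLK5, KLK6, KLK7, KLK8, KLK9, KLK10, KLK11, all transcribed from the minus strand where a promoter entry was found. Promoter windows of 300 bases, from 250 before to 50 after a transcript start, were found in RefSeq for 5 of the 6 genes (9 windows, several for genes with more than 1 start); KLK8 had no match. The first window listed is shown for the 4 genes with an entry that passed the test below on their brightest probe set, 3 that rose and KLK6, which fell, so that promoters of neighbouring genes with opposite changes can be set side by side. Capitals mark GC boxes (GGGCGG) and the core letters of the cAMP response element (TGACG), on either strand.
KLK5 promoter, chr19:50952989-50953288, minus strand: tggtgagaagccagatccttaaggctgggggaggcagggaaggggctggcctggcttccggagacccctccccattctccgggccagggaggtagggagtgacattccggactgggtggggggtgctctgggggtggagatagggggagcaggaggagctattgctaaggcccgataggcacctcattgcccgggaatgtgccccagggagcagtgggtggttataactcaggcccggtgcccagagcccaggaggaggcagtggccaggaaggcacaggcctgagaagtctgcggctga
KLK6 promoter, chr19:50969542-50969841, minus strand: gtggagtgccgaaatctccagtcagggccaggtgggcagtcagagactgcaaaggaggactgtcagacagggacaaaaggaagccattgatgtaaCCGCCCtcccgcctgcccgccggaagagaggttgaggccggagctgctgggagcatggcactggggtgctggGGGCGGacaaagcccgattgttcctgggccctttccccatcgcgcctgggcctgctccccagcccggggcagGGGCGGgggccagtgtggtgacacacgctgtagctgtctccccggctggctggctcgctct
KLK10 promoter, chr19:51019812-51020111, minus strand: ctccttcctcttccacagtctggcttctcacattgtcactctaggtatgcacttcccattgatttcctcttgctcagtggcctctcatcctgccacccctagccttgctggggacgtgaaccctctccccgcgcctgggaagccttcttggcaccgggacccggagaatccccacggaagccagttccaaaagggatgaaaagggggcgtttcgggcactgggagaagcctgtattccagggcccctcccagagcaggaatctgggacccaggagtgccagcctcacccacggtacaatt
KLK11 promoter, chr19:51027597-51027896, minus strand: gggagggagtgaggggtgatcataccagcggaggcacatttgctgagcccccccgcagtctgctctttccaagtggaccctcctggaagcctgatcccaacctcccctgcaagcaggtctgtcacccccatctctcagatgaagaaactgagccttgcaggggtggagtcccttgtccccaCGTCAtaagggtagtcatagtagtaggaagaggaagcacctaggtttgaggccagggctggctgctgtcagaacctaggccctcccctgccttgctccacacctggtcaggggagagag

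The KLK6 window held 3 GC boxes, while the KLK5 and KLK10 windows shown held no match to any motif searched. The first KLK11 window held 1 TGACG, the core of the DNA element bound by CREB, and its second window, not shown, held 3 GC boxes. GC boxes occurred in 5 of the 9 kallikrein windows, from KLK6, KLK7 and KLK11, and in 45.0% of the 35116 windows of all genes. TGACG occurred in 4 of the 9 windows, from KLK7 and KLK11, of which the 3 KLK7 windows overlap and share 1 such site, and in 24.6% of all windows. The whole element TGACGTCA, the AP-1 site TGANTCA and the TATA box TATAAA, searched on both strands, were in none of the 9 windows, and in 1.85%, 7.71% and 11.5% of all windows. TGACG lies within TGACGTCA, so matches to both were counted for each. The KLK windows had 59.0% to 69.3% G and C bases, with a median of 58.7% over all windows. These matches are descriptions of the reference sequence and say nothing on binding in these cells.

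The kallikreins did not move as a block: with MFAP5, mRNA of KLK5, KLK10 and KLK11 rose by 1.34-fold to 1.52-fold on the brightest probe set of each gene, and mRNA of KLK6 and KLK8 fell by 1.36-fold and 1.43-fold. KLK7 lay between, with a rise on 1 of its 2 probe sets. All 9 probe sets were above the brightest of 27 Bacillus control probe sets, whose RNA human cells do not make, on all 6 arrays, and all 9 passed the filter on brightness (mean signal over the 6 arrays of at least 53.7). By limma with Benjamini-Hochberg adjustment over 27307 probe sets, 5 of the 9 kallikrein probe sets were higher with MFAP5, where 13.5% of all tested were, and 3 were lower, where 11.8% of all were; the 8 called compare with 25.2% of all. Taken as 1 probe set per gene, 5 of the 6 kallikreins were called, where 29.9% of all genes were. The 2 groups were free of overlap on all 9 probe sets, and on 41.0% of all probe sets tested. All 9 lay above the 75% quantile of brightness, and of the probe sets above it 35.4% were called and 51.0% had groups without overlap. The median absolute log2 fold change was 0.52 for the 9 probe sets and 0.24 for all tested, or 0.20 above that quantile. The 6 genes were chosen with earlier results of these data known, so these contrasts with all probe sets are descriptions and not tests.

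**Figure D1:**
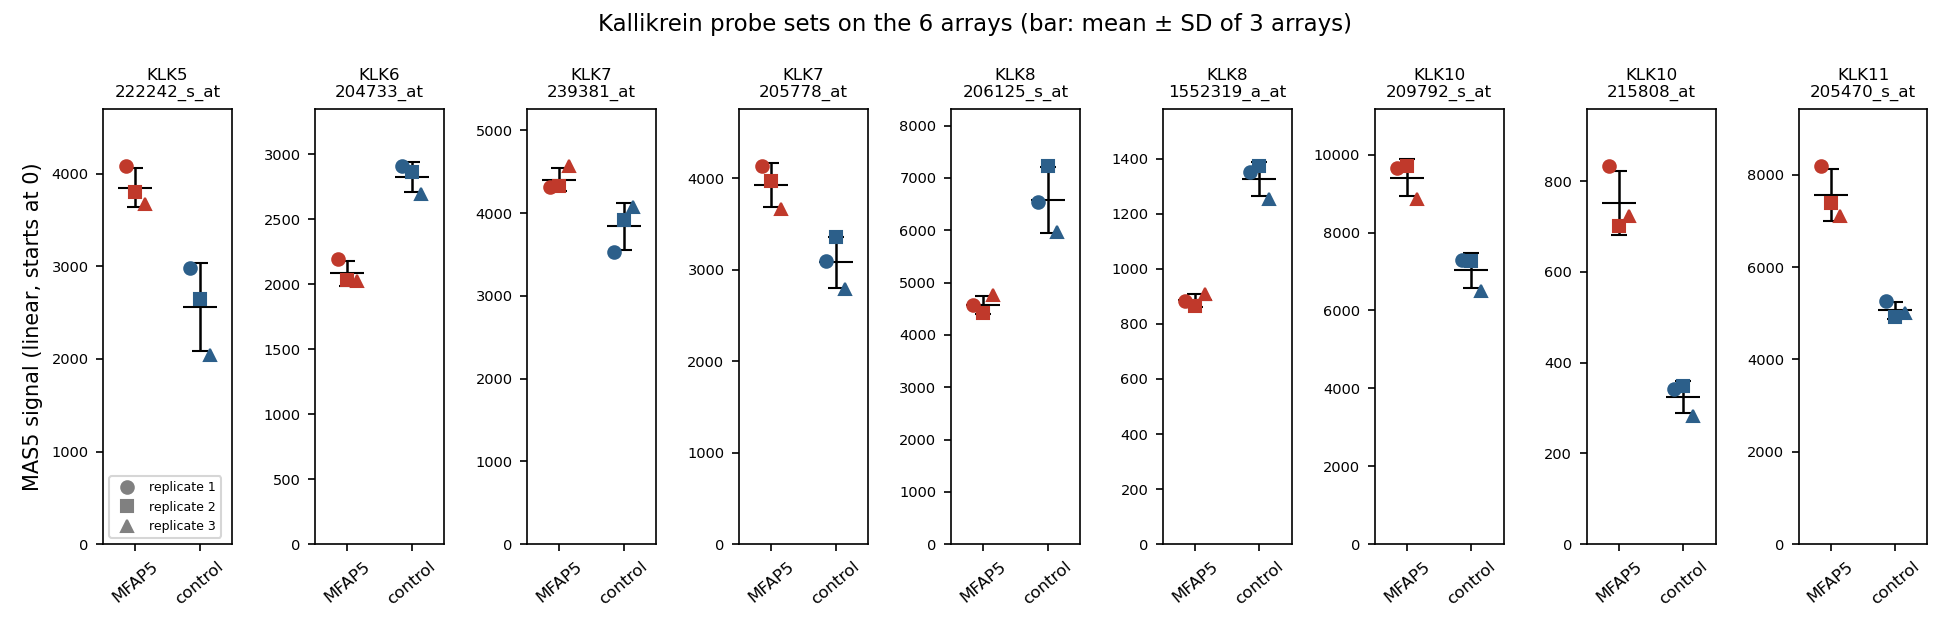
MAS5 signal (linear axis from 0) of the 9 kallikrein probe sets on the 3 MFAP5 arrays (left, red) and the 3 control arrays (right, blue), with the mean and SD of each group; symbols give the replicate. The 2 groups are separated in every panel, with MFAP5 arrays below control arrays for KLK6 and both KLK8 probe sets and above them in the other 6.

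KLK5, a trypsin-like protease that can activate itself and other pro-kallikreins, gave signals of 4080, 3798 and 3669 in MFAP5 cells, against 2981, 2645 and 2042 in control cells. Every MFAP5 array was above every control array, and control replicate 3 was the lowest. KLK5 averaged 3849 ± 210 in MFAP5 cells and 2556 ± 476 in control cells (SD, n = 3 each). The rise was 1.52-fold (95% confidence interval 1.26 to 1.83, limma adjusted p = 0.00492). Without control replicate 3 the log2 fold change was 0.45 in place of 0.61, and the call was kept.

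KLK7 is the chymotrypsin-like partner of KLK5 in the cornified layer of skin. Its brightest probe set gave 4318, 4326 and 4568 in MFAP5 cells, against 3528, 3922 and 4079 in control cells. The groups did not overlap, but the gap between the lowest MFAP5 and the highest control array was smaller than the range of the control arrays. The log2 fold change was 0.20 ± 0.07 (SE) and did not pass the test (limma adjusted p = 0.0665). The other KLK7 probe set gave 4134, 3977 and 3668 in MFAP5 cells, against 3100, 3354 and 2792 in control cells, and rose 1.28-fold (limma adjusted p = 0.0110, n = 3 each). The log2 fold change of the brightest probe set was 0.060 with arrays centred on their medians (adjusted p = 0.597), 0.14 with arrays centred on hybridisation controls (adjusted p = 0.567) and 0.24 without control replicate 3, where it passed (adjusted p = 0.0301). The mean of both probe sets, as a value for the gene, had a log2 fold change of 0.28 (adjusted p = 0.00636). The call of the other probe set was lost with arrays centred on their medians (0.21, adjusted p = 0.0539), without an intensity trend (adjusted p = 0.0595) and with arrays centred on hybridisation controls (0.30, adjusted p = 0.169).

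KLK6, a trypsin-like protease also known as neurosin from its abundance in brain, gave 2194, 2036 and 2023 in MFAP5 cells, against 2910, 2868 and 2696 in control cells. All MFAP5 arrays were below all control arrays, and the gap between the groups was wider than the range within either. KLK6 averaged 2084 ± 95 in MFAP5 cells and 2825 ± 113 in control cells (SD, n = 3 each) and fell by 0.44 on the log2 scale, or 1.36-fold (limma adjusted p = 0.00134). It fell with each of the 15 alternatives tried, with log2 fold changes from -0.58 to -0.42.

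KLK8, a trypsin-like protease also named neuropsin that acts in skin and, in mice, in the hippocampus, fell on both of its probe sets. The brightest gave 4568, 4415 and 4757 in MFAP5 cells, against 6539, 7227 and 5970 in control cells. The control arrays spread more widely than the MFAP5 arrays, and the groups did not overlap. The fall was 1.43-fold (log2 fold change -0.52 ± 0.08 SE, limma adjusted p = 0.000978). The other probe set gave 884, 863 and 908 in MFAP5 cells, against 1351, 1373 and 1255 in control cells, and fell 1.498-fold (limma adjusted p = 0.000546, n = 3 each). The log2 fold changes of the 2 probe sets differed by 0.064. The SD of that within-array difference was 0.078 over the control arrays and 0.018 over the MFAP5 arrays, and the groups overlapped. KLK6 and KLK8 stand on either side of KLK7 in the locus.

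KLK10, a family member whose mRNA is common in normal epithelia and variable in tumours, rose on both probe sets by unequal amounts. Its brightest probe set gave 9650, 9705 and 8870 in MFAP5 cells, against 7307, 7271 and 6509 in control cells. The rise was 1.34-fold (limma adjusted p = 0.00172, n = 3 each). The dimmer probe set gave 833, 700.1 and 723 in MFAP5 cells, against 342, 348 and 283 in control cells. Its MFAP5 signals were all above 2 times the control mean of 324, and it rose 2.32-fold (95% confidence interval 1.92 to 2.81, limma adjusted p = 9.08e-05). The difference in log2 signal between the 2 probe sets was 0.79 larger in MFAP5 cells than in control cells and did not overlap between the groups (exact two-sided permutation p = 0.1, the smallest that 3 against 3 arrays can give). The log2 fold change of KLK10 thus depended on the probe set: 0.42 on the brightest, 1.22 on the other and 0.82 with their mean. Which KLK10 transcripts each probe set detects was not analysed here.

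KLK11, a trypsin-like protease found in several secretory epithelia, gave 8187, 7382 and 7112 in MFAP5 cells, against 5271, 4915 and 5010 in control cells. The lowest MFAP5 array was far above the highest control array. KLK11 averaged 7560 ± 559 in MFAP5 cells and 5065 ± 184 in control cells (SD, n = 3 each) and rose 1.49-fold (limma adjusted p = 0.000278). Its log2 fold change of 0.58 ± 0.07 (SE) was higher than that of 90.3% of all probe sets tested, and that of the dimmer KLK10 probe set higher than 98.5%. KLK5 stood at the 91.2 percentile, and KLK6 and KLK8 at the 8.81 and 6.17 percentiles.

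**Figure D2:**
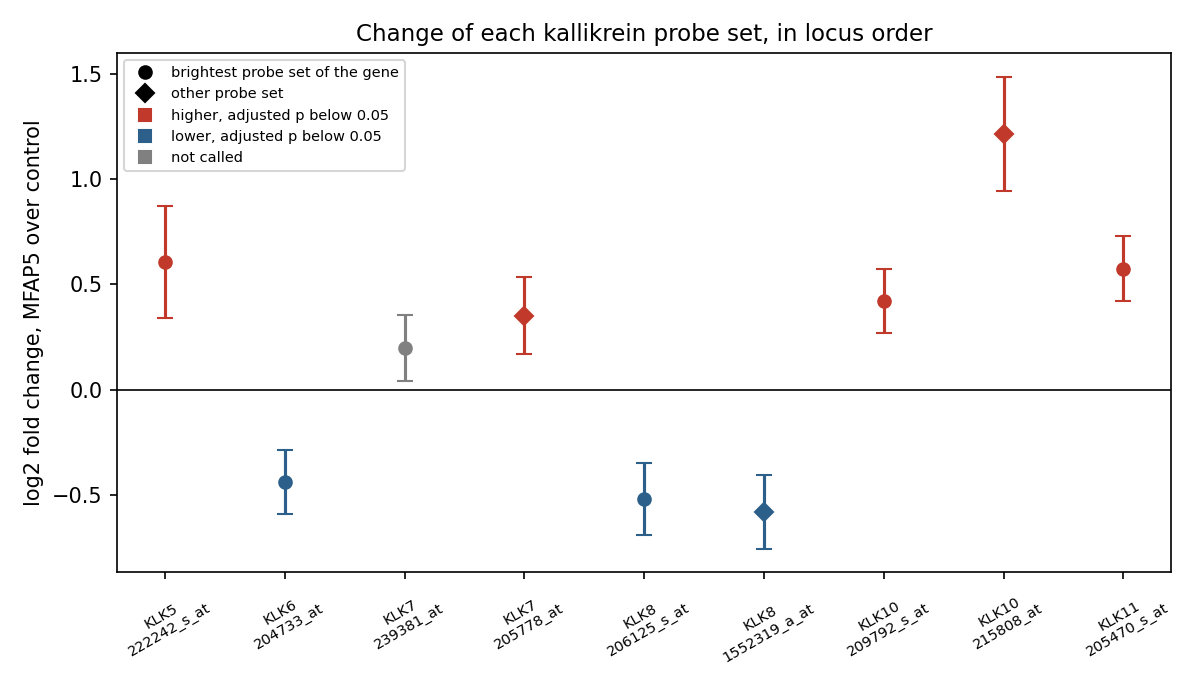
Log2 fold change of MFAP5 over control for each kallikrein probe set in locus order, with the 95% confidence interval from limma; circles are the brightest probe set of a gene and diamonds the other. KLK6 and KLK8 lie below 0 and the other 4 genes above it, with the dimmer KLK10 probe set the highest at 1.22.

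Because MAS5 scales every array as a whole, each change above is relative to the average of its array. The difference between 2 kallikreins on the same array does not depend on that scaling. With MFAP5, the log2 signal of KLK6 moved by -1.05 relative to KLK5, that of KLK7 by 0.64 relative to KLK6, that of KLK8 by -0.72 relative to KLK7 and that of KLK10 by 0.94 relative to KLK8. For these 4 pairs, each of adjacent genes among the 6, the groups did not overlap, and the exact two-sided permutation p was 0.1, the smallest possible, and 0.16 adjusted over 8 differences. KLK11 moved by 0.15 relative to KLK10, with overlapping groups (exact permutation p = 0.2, adjusted 0.267). The remaining 3 differences were those between probe sets of KLK7, KLK8 and KLK10. For KLK7 and KLK8 they were 0.15 and -0.064, each with exact permutation p = 0.4. No difference passed 0.05, which this number of arrays cannot reach.

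Control replicate 3 had the lowest control signal on 7 of the 9 kallikrein probe sets. Its 18 hybridisation control probe sets, bacterial and phage RNA added in fixed amounts, were lower by 0.23 on the log2 scale than the mean of the 6 arrays, and those of the other 5 arrays lay from -0.012 to 0.14. The part of this array in the results was tested by leaving it out: all kallikreins then kept their direction, and KLK5, KLK6, KLK8, KLK10 and KLK11 kept their calls. The log2 ratio of 3' to 5' signal, a measure of RNA integrity, averaged -0.10 in MFAP5 cells and -0.13 in control cells for GAPDH (exact two-sided permutation p = 0.5), and 0.28 in MFAP5 cells and 0.30 in control cells for ACTB (exact permutation p = 0.6). All 11 epithelial and ovarian carcinoma markers were above the brightest Bacillus control on all 6 arrays. They moved both ways: 5 rose (PAX8, KRT7, EPCAM, MUC16 and MSLN), 2 fell (WT1 and WFDC2) and 4 were not called. Of all genes tested by their brightest probe set, 14.6% were higher and 15.3% lower. EPCAM was close to the threshold, with overlapping groups (limma adjusted p = 0.0489). MUC16, which carries the CA125 antigen, rose 3.63-fold (limma adjusted p = 6.44e-07) and MSLN 2.33-fold (adjusted p = 1.42e-05), while WT1 had a log2 fold change of -0.41 (adjusted p = 0.00259) and WFDC2 of -0.77 (adjusted p = 9.28e-05). Of 6 leukocyte markers and 6 endothelial markers with a probe set, none was above the brightest Bacillus control on all 6 arrays. Of 9 fibroblast markers, 2 (COL1A1 and COL1A2) were. Some of the others were above it on fewer arrays. The endothelial markers VWF and CDH5 passed the brightness filter and were not called. Both were above that control on 3 of 3 MFAP5 arrays, and on 1 (VWF) and 2 (CDH5) of 3 control arrays. The brightest Bacillus signal differed by array, from 26.4 on MFAP5 replicate 1 to 55.9 on control replicate 1. CDH5 gave 44.9 and 46.4 on these arrays, and was counted as above on the first only. The summed signal of the fibroblast markers was 363 to 428 in MFAP5 cells and 292 to 367 in control cells, and that of the carcinoma markers, to which EPCAM and KRT18 gave the highest signals, 106062 to 113929 in MFAP5 cells and 95038 to 105633 in control cells. Their part in the kallikrein changes was not tested. In these markers, as in any bulk sample, fewer cells with an mRNA and less of it per cell cannot be told apart.

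On brightest probe sets, the other kallikreins of the locus on the array gave lower signals than any of the 6 genes, with KLK13 the brightest of them. Of 10, 8 had a probe set of their own symbol and 4 (KLK1, KLK3, KLK12 and KLK13) passed the filter; 1 rose, none fell and 3 were not called, and their median log2 fold change was 0.34, against 0.02 over all probe sets tested. Among genes taken by their brightest probe set, 14.6% of all tested were higher and 15.3% lower. These shares also stand beside the counts of each list below. KLK1, tissue kallikrein, which releases kinins, gave 202, 131 and 180 in MFAP5 cells, against 64.8, 118 and 97.9 in control cells. It rose 1.85-fold (limma adjusted p = 0.0330), but lost its call when MFAP5 replicate 1 (adjusted p = 0.103), MFAP5 replicate 3 (0.0918) or control replicate 1 (0.102) was left out, without the filter (0.0605), with quantile normalization (0.0594), with arrays centred on their medians (0.0556) and without an intensity trend (0.0608). KLK13, another epithelial kallikrein, gave 583, 524 and 540 in MFAP5 cells, against 485, 455 and 359 in control cells, without overlap and without a call (limma adjusted p = 0.0739). KLK14, an activating trypsin-like kallikrein of skin, missed the filter and was not tested, with 85.3, 54.5 and 88.3 in MFAP5 cells, against 19.5, 40.3 and 6.79 in control cells; 3 of 3 MFAP5 arrays and 1 of 3 control arrays were above the brightest Bacillus control. KLK15, also below the filter and not tested, lay the other way on its brightest probe set, with 35.8, 46.7 and 14.6 in MFAP5 cells, against 56.4, 67.4 and 52.1 in control cells; 2 of 3 MFAP5 arrays and 3 of 3 control arrays were above the brightest Bacillus control. KLK2 and KLK4 were below the filter, with overlapping groups on their brightest probe sets. KLK9, which stands between KLK8 and KLK10, has no probe set of its own symbol in the annotation used here.

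Of the proteases that activate pro-kallikreins, 5 of 9 passed the filter; 1 rose, none fell and 4 were not called (median log2 fold change 0.40). Urokinase (PLAU), which converts plasminogen to plasmin, rose 2.998-fold, with 317, 252 and 243 in MFAP5 cells, against 102, 68.5 and 103 in control cells (limma adjusted p = 0.000550). Matriptase (ST14), a membrane protease that can activate pro-KLK5, had a log2 fold change of 0.13 (limma adjusted p = 0.216), and its partner prostasin (PRSS8) 0.10 (adjusted p = 0.358). Both signs turned with arrays centred on their medians, where ST14 had -0.011 and PRSS8 -0.039.

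Of 17 inhibitors, 13 had a probe set and 8 passed the filter; 2 rose, none fell and 6 were not called (median log2 fold change 0.13). Alpha-1-antitrypsin (SERPINA1), a serpin of broad range, rose 3.12-fold, with 371, 285 and 304 in MFAP5 cells, against 78.9, 100.4 and 133 in control cells (limma adjusted p = 0.000456). SPINT1, the Kunitz-type inhibitor of matriptase, rose 1.40-fold (limma adjusted p = 0.000744), while SPINT2 and SLPI, which were bright, had log2 fold changes of 0.07 and -0.05 and were not called. SPINK5, the main kallikrein inhibitor of skin, was not analysed here.

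Of 18 substrates and cleaved receptors, 14 had a probe set and 8 passed the filter; 2 rose, 1 fell and 5 were not called (median log2 fold change 0.06). IGFBP3, a carrier of insulin-like growth factors that kallikreins can cut, rose 2.51-fold (limma adjusted p = 1.54e-06), and the amyloid precursor protein APP 1.43-fold (adjusted p = 0.00127). Of the dimmer APP probe sets, 1 rose (log2 fold change 0.70, limma adjusted p = 0.00120). The other, at 0.39, had overlapping groups and was not called (limma adjusted p = 0.160). The adhesion molecule L1CAM fell by 0.84 on the log2 scale (limma adjusted p = 0.000273). E-cadherin (CDH1) had a log2 fold change of 0.16 (adjusted p = 0.0529), and the urokinase receptor PLAUR -0.16 (adjusted p = 0.683). The protease-activated receptor F2RL1 was not analysed here, and the skin substrates DSG1, DSC1 and CDSN were below the filter.

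Many kallikreins respond to steroid hormones in other tissues, so their receptors were read as well. Of 6, 4 passed the filter, and 1, the progesterone receptor PGR, fell (log2 fold change -1.01, limma adjusted p = 0.00481). ESR1, NR3C1 and VDR had log2 fold changes from -0.11 to 0.15 on their brightest probe sets and were not called. A dimmer VDR probe set was called higher, with 294, 295 and 253 in MFAP5 cells, against 180.02, 199.8 and 225 in control cells (log2 fold change 0.48, limma adjusted p = 0.0397). Of the 10 protein-coding genes on each side of the kallikrein cluster, 17 of 20 had a probe set and 7 passed the filter; 1 fell, none rose and 6 were not called (median log2 fold change 0.08). The gene that fell, ETFB, which encodes an electron carrier of mitochondria, had a log2 fold change of -0.27 (limma adjusted p = 0.0251). ETFB did not pass when MFAP5 replicate 2 (adjusted p = 0.0634) or 3 (0.0925) or control replicate 1 (0.0984) or 2 (0.0721) was left out, without an intensity trend (0.101) or with arrays centred on hybridisation controls (0.0981).

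**Figure D3:**
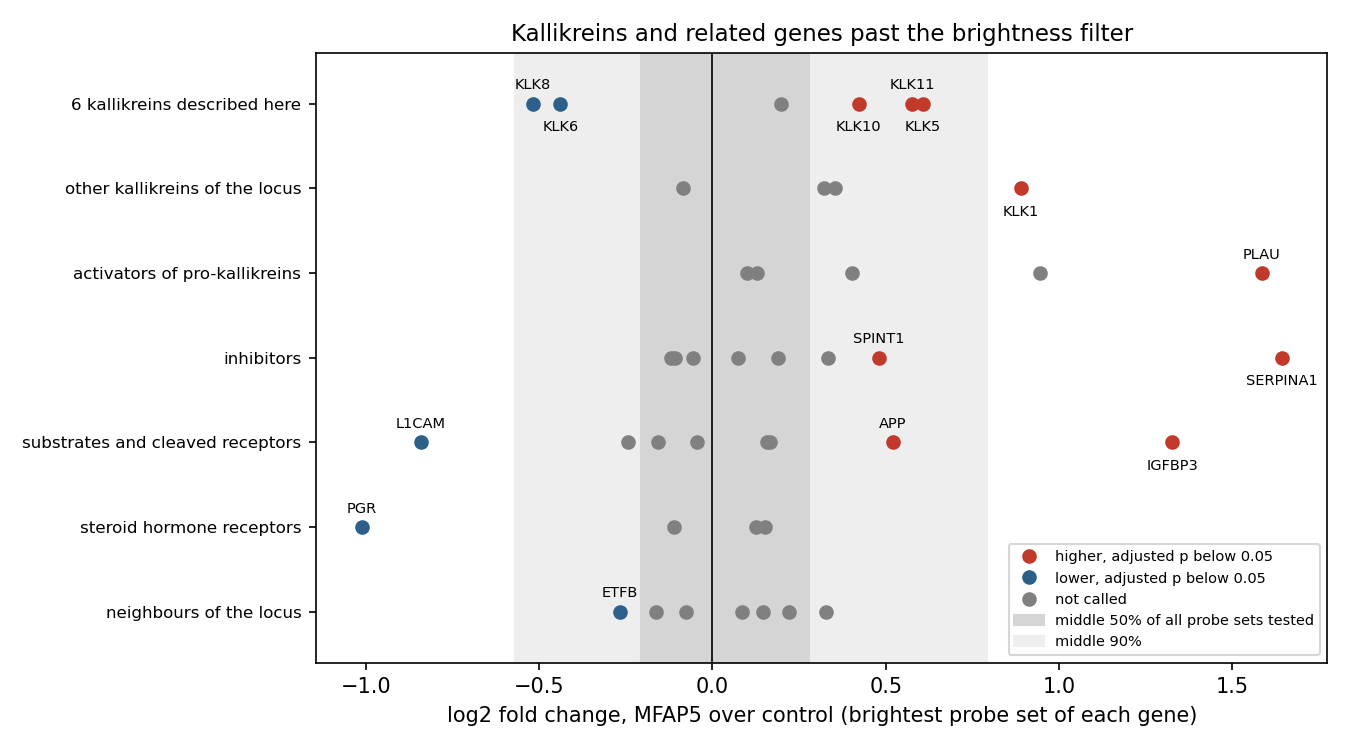
Log2 fold change of MFAP5 over control (brightest probe set of each gene) for genes past the brightness filter, by list, with the cell type marker lists left out; each point is a gene, red if higher, blue if lower and grey if not called, and grey bands hold the middle 50% and 90% of all probe sets tested. The 6 kallikreins lie on both sides of 0, while SERPINA1 and PLAU lie furthest to the right and PGR furthest to the left among the genes drawn.

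The genes whose log2 signal followed a kallikrein most closely over the 6 arrays were looked up among 12215 other genes, as a description without a test. For KLK6 these were SRA1, CDKN3 and ASF1A, with Pearson correlations of 0.999 each. For KLK8 they were CDC37 (0.999), KANSL3 and SHQ1 (0.997 each). For KLK5 they were DYRK1A (0.998), C1orf116 and TRIO (0.997 each), for KLK10 TIMP3, SCD5 (0.999 each) and GPR20 (0.997), and for KLK11 CAMK2N1, LIF and WWC1 (0.998 each). No gene stood among the 3 closest for more than 1 kallikrein, but lists of 3 genes are too short to show whether kallikreins share close genes. Such correlations are common with 6 arrays in 2 groups: 411 to 1149 probe sets correlated above 0.95 with each of these 5 kallikreins, and the arrays share their group and their scaling.

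**Figure D4:**
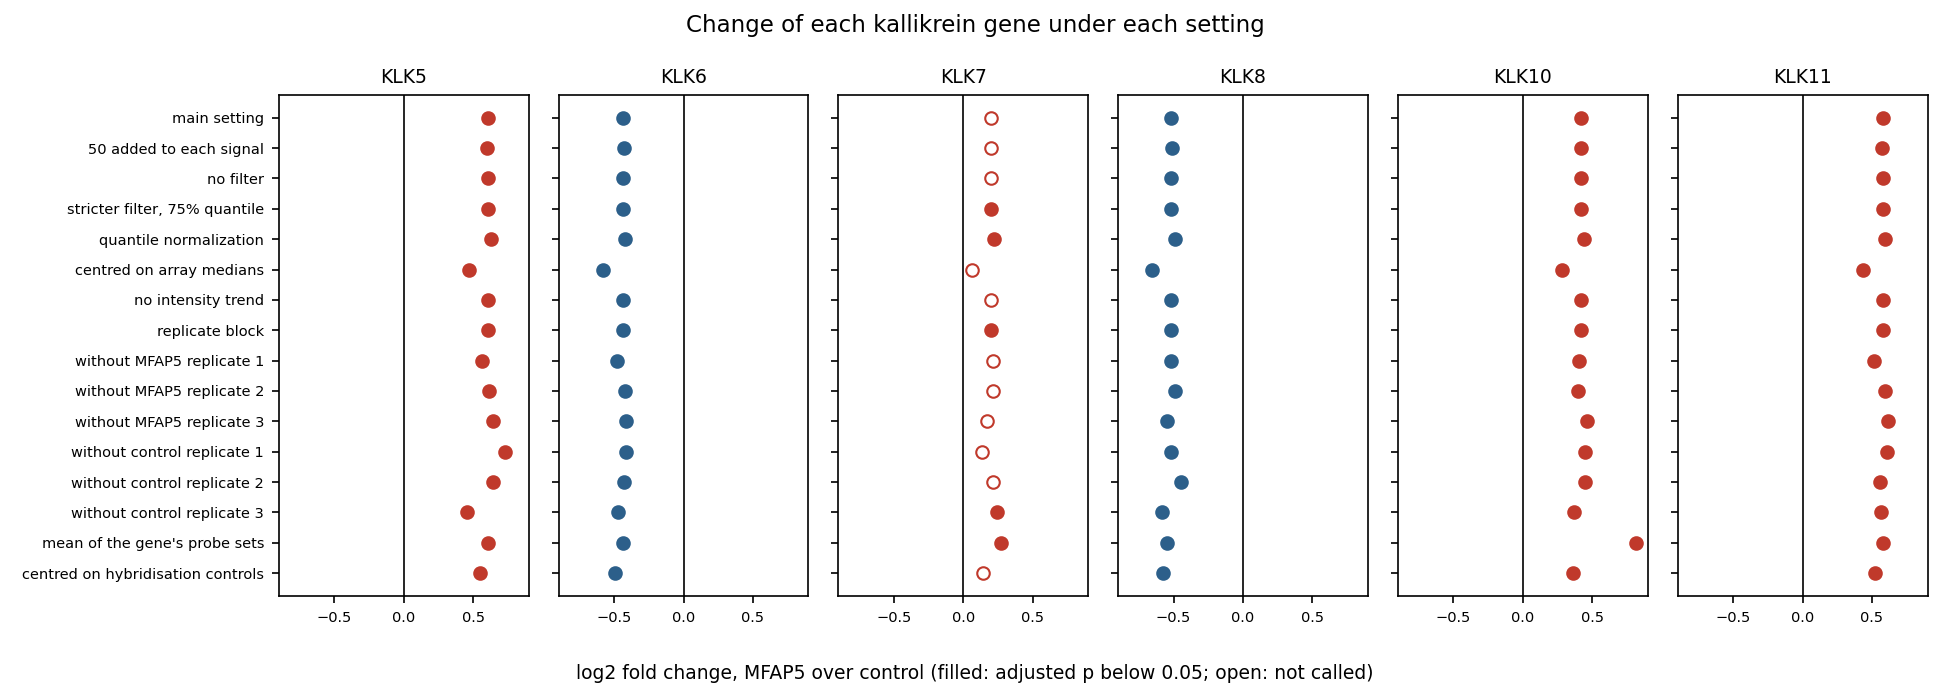
Log2 fold change of MFAP5 over control for the 6 kallikrein genes (columns) under the main setting and each alternative (lines), filled where the adjusted p was below 0.05. KLK5, KLK10 and KLK11 stay to the right of 0 and KLK6 and KLK8 to the left with filled points throughout, and KLK7 is open in the main setting and filled in 5 of 15 alternatives.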

How the data were processed

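Expression was measured in 6 samples of OVCA432 cells, grouped by their titles. Each probe set has 1 deposited intensity per array, on a linear scale, made with MAS5 per the submitters' processing notes, which give no version. The trimmed mean of each array, with 2% left out at each end, was 500.07, so the values were taken as scaled and were not scaled again. Genes were named through the platform annotation: 41091 probe sets had 1 symbol, 1801 several and 11721 none, and 62 control probe sets were left out. Signals were taken to log2, probe sets with a mean below the median (a signal of 53.7) were removed, and the groups were tested on the remaining 27307 (R 4.3.3, limma 3.58.1: lmFit, eBayes with an intensity trend, two-sided, Benjamini-Hochberg, threshold 0.05) after a test on simulated data. The probe set with the highest mean stood for its gene. Probe sets ending in _s_at or _x_at can share probes with related genes. The brightest probe sets of KLK5, KLK8, KLK10 and KLK11 end in _s_at, and KLK5 and KLK11 had no other probe set. Named were all 6 kallikreins, ST14, PRSS8, SPINK5, F2RL1 and PLAUR, up to 4 called genes a list with the largest change, and the 3 closest genes for each called kallikrein. The other list genes named were chosen after their values were seen. The members and lists were chosen with earlier results of these data known. The hybridisation controls were centred on as an alternative chosen after seeing the data. The precision is limited by the number of arrays.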

Additional observations from a re-analysis of the deposited data

How the results depend on the processing

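KLK5, KLK6, KLK8, KLK10 and KLK11 kept their direction and their call under all 15 alternatives, with log2 fold changes of 0.45 to 0.73, -0.58 to -0.42, -0.66 to -0.45, 0.28 to 0.82 and 0.44 to 0.62. KLK7, not called on its brightest probe set (0.20), was called with the stricter filter at the 75% quantile (0.20), quantile normalization (0.22), the replicate block (0.20) and the mean of its probe sets (0.28), and not called with arrays centred on their medians (0.060) or on hybridisation controls (0.14); with single arrays left out it ranged from 0.14 to 0.24, called without control replicate 3. Of the 9 kallikrein probe sets, 7 to 9 were called under each alternative. Over all probe sets, 3679 were higher and 3209 lower. Centring on array medians moved the median log2 fold change of all probe sets to -0.12, against 0.02, and gave 2302 higher and 5975 lower, and ST14 and PRSS8 changed sign (-0.011 and -0.039). With arrays centred on hybridisation controls (an alternative added once the data had been seen) there were 1920 higher and 2011 lower (3931 in all), the stricter filter 2422 higher among fewer probe sets, and leaving out MFAP5 replicate 2 2118 lower. Same-numbered arrays of the 2 groups deviated together with correlations of 0.089, -0.0071 and 0.17, and arrays of different number with -0.18 to 0.10. The numbers were not taken as pairs, though these values, from 3 arrays a group, cannot exclude pairing. With the replicate block 7988 probe sets were called, against 6888. Of the list genes past the filter, markers left out, 9 were called, where 29.9% of all genes were. Genes past the filter numbered 4, 5, 8, 8, 4 and 7 in these lists. Under the alternatives 6 to 12 list genes were called, with 6 under the stricter filter, which tests fewer genes. Signals near the Bacillus controls limit what can be said of KLK14 and other dim genes.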
